A study of Mus musculus and Homo sapiens with 9 samples.

Results

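Histone-modifying enzyme genes encode the proteins that place chemical groups on histones and those that take them off. They were chosen by gene symbol, as protein-coding genes of the families Kat, Kmt2, Kmt5, Setd, Ezh, Suv39h, Ehmt, Nsd and Prmt (writers) and Kdm, Hdac and Sirt (erasers). The rule gave 76 genes, 40 writers and 36 erasers, among 21887 protein-coding genes on placed chromosomes of the RefSeq annotation of GRCm38, whose coordinates are those of mm10. The choice is one of names, so it includes members known mainly for other substrates, such as Setd3, an actin histidine methyltransferase, and the mitochondrial sirtuins Sirt3, Sirt4 and Sirt5. The study mapped thymine DNA glycosylase (TDG) and the transcription factor p53 on chromatin by immunoprecipitation and sequencing (ChIP-seq). Both libraries described here came from B16 mouse melanoma cells with an HA tag knocked in at the Tdg gene, 1 precipitated with an HA antibody (3410 peaks, called TDG peaks here) and 1 with a p53 antibody (126 peaks). The labels name no drug or other treatment for these cells, and they do not say whether the tagged line is 1 clone. The other 7 of the 9 samples, among them the HA antibody in WT cells, the p53 antibody in Trp53 KO cells, input and rabbit IgG from the tagged cells and 3 samples of the human line NCI-H1299, were not analysed here. There was 1 library per antibody, so no value below has a replicate check, and whether the peaks depend on the tag or on p53 was not tested. Peak lists do not measure expression, so they gave no check of the melanoma label by marker genes.

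Acetyl groups on histone lysines are added by lysine acetyltransferases and removed by histone deacetylases and sirtuins, and are a hallmark of active promoters and enhancers. Methyl groups carry meanings that depend on the residue: lysine 4 of histone H3 is methylated at active promoters, lysine 36 along transcribed genes, and lysines 9 and 27 in silent chromatin. TDG, a base excision repair enzyme, removes thymine from G:T mismatches and oxidised forms of methylcytosine from DNA. It is known as a partner of the acetyltransferases p300 and CBP and as a protein of CpG-rich promoters, which lie at the starts of most housekeeping and regulatory genes.

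The promoters below show the kind of sequence at which the members' TDG summits lay. They are the promoter windows with the highest TDG fold enrichment among members whose summit fell inside the window, followed by 1 paralog without a TDG peak at a gene end. Each runs 5′ to 3′ in RefSeq GRCm38.p6 from 250 bases before the RefSeq start to 50 bases from it on, so that base 251 is the start, and capitals mark CpG dinucleotides. The windows are chr13:47043249-47043548 on the plus strand for Kdm1b, chr16:93603766-93604065 on the minus strand for Setd4, chr6:91156565-91156864 on the plus strand for Hdac11, chr11:101226414-101226713 on the minus strand for Ezh1 and chr4:136602674-136602973 on the minus strand for Kdm1a. 
Kdm1b: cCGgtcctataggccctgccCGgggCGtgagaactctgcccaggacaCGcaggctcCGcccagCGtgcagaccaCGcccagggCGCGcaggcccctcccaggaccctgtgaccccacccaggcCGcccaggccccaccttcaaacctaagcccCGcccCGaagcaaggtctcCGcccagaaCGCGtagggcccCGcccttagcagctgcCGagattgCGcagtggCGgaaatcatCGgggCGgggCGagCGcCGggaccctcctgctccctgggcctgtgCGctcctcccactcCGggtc
Setd4: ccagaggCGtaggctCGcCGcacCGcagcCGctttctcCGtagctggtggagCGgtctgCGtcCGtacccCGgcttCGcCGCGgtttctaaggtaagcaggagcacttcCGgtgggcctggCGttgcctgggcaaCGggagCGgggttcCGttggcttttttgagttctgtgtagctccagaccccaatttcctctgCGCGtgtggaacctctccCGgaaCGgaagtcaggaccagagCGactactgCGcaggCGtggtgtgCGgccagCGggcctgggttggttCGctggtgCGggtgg
Hdac11: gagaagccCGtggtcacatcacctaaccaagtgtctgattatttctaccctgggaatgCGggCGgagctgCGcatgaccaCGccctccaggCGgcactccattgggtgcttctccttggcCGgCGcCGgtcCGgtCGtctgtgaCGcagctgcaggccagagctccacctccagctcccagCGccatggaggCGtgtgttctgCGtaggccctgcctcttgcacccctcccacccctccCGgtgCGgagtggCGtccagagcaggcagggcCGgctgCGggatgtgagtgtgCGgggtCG
Ezh1: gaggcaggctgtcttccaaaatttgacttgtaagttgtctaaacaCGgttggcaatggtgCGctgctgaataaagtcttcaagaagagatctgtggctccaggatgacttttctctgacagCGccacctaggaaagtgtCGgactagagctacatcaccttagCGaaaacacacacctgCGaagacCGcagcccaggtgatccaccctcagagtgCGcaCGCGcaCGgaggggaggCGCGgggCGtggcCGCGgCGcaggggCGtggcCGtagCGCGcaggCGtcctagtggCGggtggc
Kdm1a: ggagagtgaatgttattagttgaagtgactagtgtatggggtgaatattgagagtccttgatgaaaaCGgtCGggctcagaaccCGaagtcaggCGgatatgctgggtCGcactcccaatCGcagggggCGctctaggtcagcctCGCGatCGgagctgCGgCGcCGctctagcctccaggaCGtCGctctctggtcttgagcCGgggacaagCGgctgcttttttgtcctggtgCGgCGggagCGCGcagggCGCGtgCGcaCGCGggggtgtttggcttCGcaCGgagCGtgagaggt

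Kdm1b, with 26 CpG dinucleotides in its window, had the TDG summit at base 273, inside the transcript. In Setd4 the summit lay at base 66 of a window with 29, and in Hdac11 at base 137 of a window with 22. In Ezh1 it lay at base 264 of a window with 23. The Kdm1a window, with 29 CpG dinucleotides, held as many as that of Setd4, and the nearest TDG summit lay 264373 bases from the gene. Of the 21 members with a TDG peak at a gene end, 9 had the summit inside such a window: Ezh1, Ezh2, Hdac5, Hdac11, Kdm1b, Kmt5a, Kmt5c, Prmt1 and Setd4. The promoter table matched 61 of the 76 members; those not matched were Hdac1, Hdac3, Hdac10, Kat6a, Kdm2a, Kdm3b, Kdm4b, Kdm5a, Kdm6b, Kmt2b, Kmt2e, Nsd1, Nsd2, Nsd3 and Setd1b.

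The first question was how many of these genes carried TDG at an end. A TDG summit lay within 1 kb of an end of 21 of the 76 enzyme genes (27.6%, exact 95% interval 18 to 39.1%), against 12.3% of all protein-coding genes (2689 of 21887). The interval covers counting error only. Where the RefSeq promoter table gave a strand, for 17 of these 21 genes, the summit lay within 1 kb of the outer start in all 17 and within 1 kb of the stop in none. Among all genes with a strand and a gene-end peak, 2179 of 2261 (96.4%) had it at the start. By share of genes with a strand, 27.9% of members had a TDG summit at the start, beside 12.5% of all genes.

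**Figure D1:**
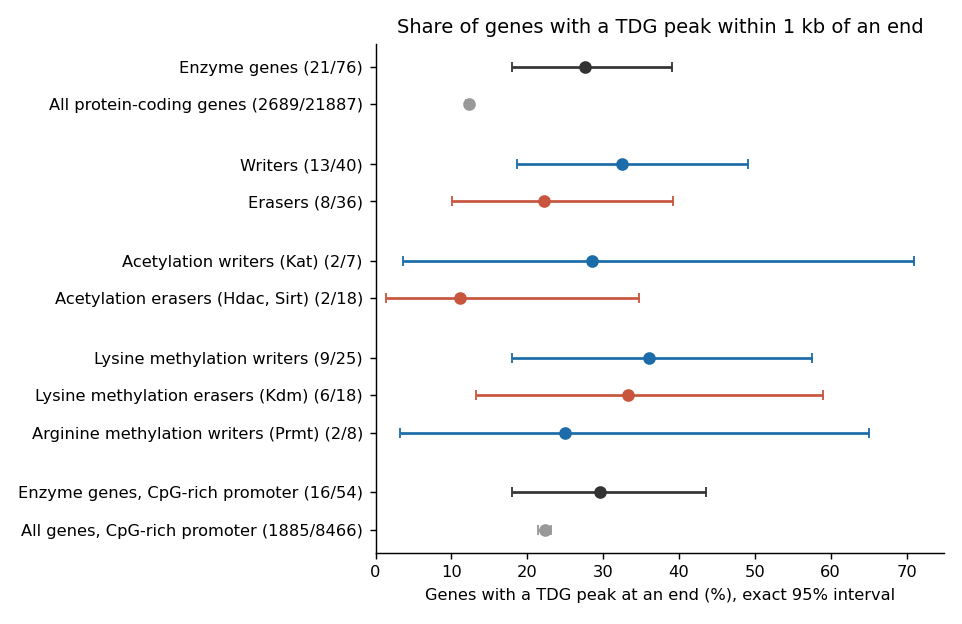
Share of genes with a TDG summit within 1 kb of an end, in percent, with exact 95% binomial intervals, for the enzyme genes, their classes and all protein-coding genes, counts in parentheses. The enzyme genes stood at 27.6% and all genes at 12.3%, the intervals of writers and erasers overlapped, and among genes with CpG-rich promoters the enzyme genes' interval (18 to 43.6%) held the share of all genes (22.3%).

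Most promoters of these enzymes are CpG-rich, and against genes with like promoters the excess was smaller. A promoter window was called CpG-rich where the observed over expected CpG count was at least 0.6, taken at the RefSeq start nearest the outer end of the gene. By this measure 54 of 61 members (88.5%) were CpG-rich, against 48.4% of all genes. Of the CpG-rich members 16 of 54 (29.6%, exact interval 18 to 43.6%) carried a TDG summit at an end, against 22.3% of all CpG-rich genes, a share inside the members' interval. Of the CpG-poor members 1 of 7 had one, against 4.17% of CpG-poor genes. That gene was Setd5 (observed over expected 0.0861), whose tabulated start lay 27673 bases from the outer gene end where its TDG peaks were, so the value does not describe the bases under the peaks. Taking only genes whose tabulated start lay within 1 kb of the outer end, a choice made after the values were seen, gave 16 of 49 CpG-rich members (32.7%) against 24.0% of such genes.

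Among the enzyme genes themselves, those with TDG did not have the higher median CpG content. The 17 members with a TDG peak and a matched promoter had a median CpG observed over expected of 0.722 (quartiles 0.672 and 0.917), and the 44 without had 0.817 (quartiles 0.700 and 0.931), so the ranges overlapped widely. Over all genes the order was the other way, with 0.810 in genes with a TDG peak and 0.498 in genes without. Median GC content was 59.7% in members with a TDG peak and 60.7% in members without.

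**Figure D2:**
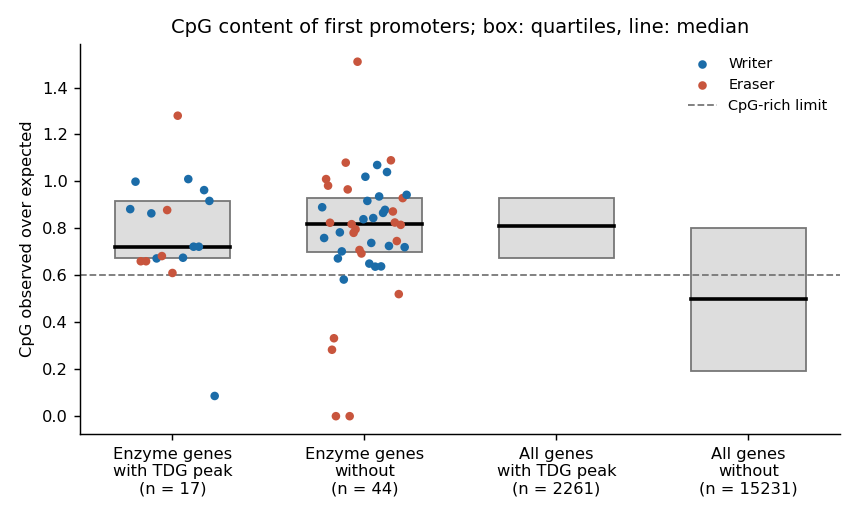
CpG observed over expected (y axis) in the first promoter window of enzyme genes with and without a TDG peak at an end and of all genes with and without one; boxes span the quartiles, lines are medians, points are single enzyme genes. The enzyme genes had medians of 0.722 with and 0.817 without a peak, both near the 0.810 of all genes with a peak and above the 0.498 of all genes without.

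Writers and erasers were then set side by side. A TDG peak lay at an end of 13 of 40 writer genes (32.5%, exact interval 18.6 to 49.1%) and of 8 of 36 eraser genes (22.2%, exact interval 10.1 to 39.2%). Both intervals were wide and overlapped, and no test of the difference was made, since genes are not replicates. By modification, the intervals of writers and erasers overlapped as well. Lysine methylation writers, a class set by symbol that counts Setd3 among them, had 9 of 25 (36%), and lysine demethylases 6 of 18 (33.3%). The acetyltransferases had 2 of 7 (28.6%, exact interval 3.67 to 71.0%), and the deacetylases and sirtuins together 2 of 18 (11.1%, exact interval 1.38 to 34.7%), near the share of all genes. Among CpG-rich promoters the writers had 10 of 31 (32.3%) and the erasers 6 of 23 (26.1%). The 22.3% of all CpG-rich genes lay inside both exact intervals, 16.7 to 51.4% and 10.2 to 48.4%.

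The members' chromosomes differed in how many TDG peaks they held. TDG peaks were dense on chromosome 6, where 25.7% of all genes had one at an end, and nearly absent from the X chromosome (0.104%). Of the 7 members on chromosome 6, 6 had a TDG peak at an end: the writers Ezh2 and Setd5 and the erasers Hdac11, Kdm3a, Kdm5a and Kdm7a. The only one without was Prmt8, an arginine methyltransferase known from brain. Without chromosome 6, an alternative added after seeing the data, the erasers had 4 of 32 (12.5%, exact interval 3.51 to 29.0%), beside 11.6% of all genes off chromosome 6, and the writers had 11 of 37 (29.7%, exact interval 15.9 to 47.0%). The members together then had 15 of 69 (21.7%, exact interval 12.7 to 33.3%). The local background that the peak caller used, recovered from the deposited values, was also higher on chromosome 6, with a median of 3.29 reads over 434 peaks against 2.56 over 2965 peaks on other placed chromosomes. Its part in the number of peaks was not tested. On the X and Y chromosomes 6 members, Hdac6, Hdac8, Kdm5c, Kdm5d, Kdm6a and Suv39h1, had no TDG peak, and 5 of these are erasers. On autosomes the shares were 33.3% for writers (13 of 39) and 25.8% for erasers (8 of 31). If every member had carried the share of its own chromosome, 9.37 of the 76 would have had a peak, 4.91 writers and 4.46 erasers. For the 54 CpG-rich members, the shares of CpG-rich genes on their own chromosomes gave 11.7, beside the 16 seen.

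**Figure D3:**
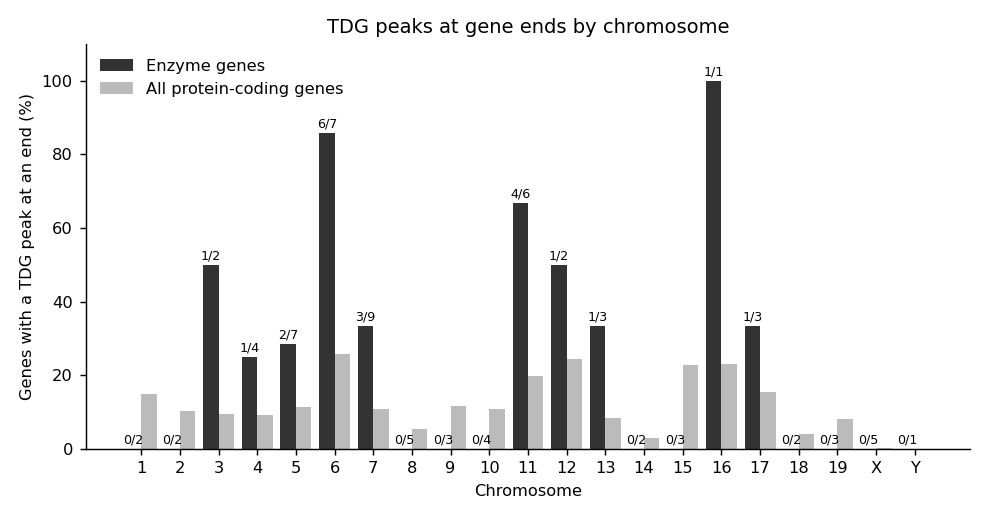
Percent of genes with a TDG summit within 1 kb of an end on each chromosome, for enzyme genes (dark bars, counts above) and all protein-coding genes (grey bars). Chromosome 6 had 6 of 7 and chromosome 11 had 4 of 6 enzyme genes with a peak, while chromosomes 8, 10 and X had none of 5, 4 and 5.

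Among the lysine methyltransferases, both genes for the catalytic subunit of Polycomb repressive complex 2, which methylates lysine 27 of histone H3, carried TDG. At Ezh1 the peak (mm10, chr11:101226019-101226549) reached 6.51-fold (−log10 q 9.87), and its summit lay 13 bases inside the upper end of the gene, which is its start. At Ezh2 the peak (chr6:47595088-47595409) reached 5.71-fold (−log10 q 12.3), and its summit lay 9 bases outside the upper end. The summits held 24 reads at Ezh1 and 36 at Ezh2, over local backgrounds of 2.56 and 5.00 reads, so the higher count at Ezh2 stood on a higher background. Of 12 paralog pairs compared, a chosen list, this was the only pair with TDG at an end of both genes. In 5 pairs 1 gene had it, and in 6 pairs neither did. The list does not cover all paralogs: it leaves out Kdm4a and Kdm4b, which both had a peak. No like share was counted for pairs over all genes. Ezh1 and Ezh2 lie on chromosomes 11 and 6, where 19.7% and 25.7% of all genes had a peak at an end. The exact interval for this family, 15.8 to 100%, held the 22.3% of CpG-rich genes.

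The genes for methylation of lysine 20 of histone H4 had 2 of 3 with TDG at an end. The exact interval, 9.43 to 99.2%, held the 12.3% of all genes. Kmt5a, whose enzyme places the first methyl group there, had a peak of 6.25-fold 88 bases outside its start (chr5:124439539-124439959). Kmt5c had one of 4.87-fold 180 bases outside its lower end (chr7:4739837-4740290). Kmt5b, the paralog of Kmt5c with the same reaction, had none, and the nearest summit was 182158 bases away.

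The methyltransferases of lysine 4 of histone H3 had 2 of 7 (exact interval 3.67 to 71.0%), a range that held the 12.3% of all genes. Kmt2b, known for its role at CpG-rich promoters in germ and stem cells, had a peak of 5.21-fold whose summit lay 12 bases inside its upper end (chr7:30588896-30589565) and also within 1 kb of an end of Zbtb32. Setd1b had a peak of 4.64-fold (chr5:123141099-123141362), but at 835 bases from its lower end it lay nearer to Rhof, so it belongs to Setd1b only by the distance rule. Their paralogs Kmt2a and Setd1a had none: the summit 3915 bases beyond the lower end of Kmt2a lay 40 bases from an end of Ttc36. Kmt2c, Kmt2d and Setd7 had none either, nor did Kmt2e, which was placed at no residue.

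Of the 8 Setd genes, named for their SET domain, 4 had a TDG peak, and that of Setd3 was the strongest of any member. The exact interval of this share, 15.7 to 84.3%, lay above the 12.3% of all genes and held the 22.3% of CpG-rich genes. Setd was 1 of several families counted, so its interval is not a test. Of the 4, Setd1b had its peak nearer to Rhof, and Setd5 lies on chromosome 6, where 25.7% of all genes had a peak. At Setd3 the peak (chr12:108179278-108179881) reached 12.2-fold, which placed it 8th by fold among all 3410 TDG peaks. Its −log10 q was 31.8, and its summit held 48 reads. It lay 236 bases outside the gene, within 1 kb of an end of Ccnk, the gene for cyclin K, as well. At Setd4 the peak (chr16:93603673-93604166) reached 8.59-fold, and its summit lay 791 bases inside the outer end and 185 bases upstream of the tabulated RefSeq start. Setd5 had 2 peaks at its lower end, the stronger of them (chr6:113076191-113076658, 6.78-fold) 730 bases outside and the weaker (chr6:113077197-113077862, 3.97-fold) 39 bases inside. It had a further TDG peak of 7.29-fold within the gene, 22472 bases from that end. Setd1a, Setd2, Setd6 and Setd7 had none.

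Among the members, none of the writer genes placed at lysine 9 of histone H3, the silent mark, nor of those placed at lysine 36, had a peak. Methyltransferase genes under other names were not placed at a residue and are counted below. Among them Setdb2 and Setmar had a peak, and Setdb1 and Ash1l had none. For Suv39h1, Suv39h2, Ehmt1 and Ehmt2, a count of 0 of 4, the nearest summits lay 95542127, 171889, 15582 and 50986 bases away in that order. The lysine 36 genes Setd2, Nsd1, Nsd2 and Nsd3 likewise gave 0 of 4. Demethylases acting on lysine 9 had 4 of 7, and 2 of these, Kdm3a and Kdm7a, lie on chromosome 6, where 25.7% of all genes had a peak, whereas Suv39h1 lies on the X chromosome (0.104%). The exact interval for either set of writers, 0 to 60.2%, held the 12.3% of all genes, and that for the demethylases, 18.4 to 90.1%, held the 22.3% of CpG-rich genes. The intervals of writers and demethylases overlapped. The grouping by residue was made after the values were seen.

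Among acetyltransferases and arginine methyltransferases, 4 genes had a peak. Kat2a, which encodes the GCN5 subunit of the SAGA and ATAC complexes, had one of 5.47-fold (chr11:100712060-100712487) 87 bases inside its outer gene end, 69 bases downstream of its RefSeq start, while the nearest summit to its paralog Kat2b lay 16751 bases away. Kat7, for the acetyltransferase HBO1, had the widest member peak at 900 bases (chr11:95309556-95310455, 4.87-fold), with its summit 635 bases inside the gene. Prmt1, for the main enzyme of asymmetric arginine dimethylation, had a peak of 6.25-fold 183 bases outside its start (chr7:44986554-44987126). Prmt6 had one of 4.70-fold with 17 reads at the summit, the fewest of any member peak (chr3:110250255-110250800). Kat5, Kat6a, Kat6b, Kat8, Prmt2, Prmt3, Prmt5, Prmt7, Prmt8 and Prmt9 had none.

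The lysine demethylases ranged from a strong site to the weakest in the set. At Kdm1b, for the flavin-dependent demethylase LSD2 of lysine 4, the peak (chr13:47043008-47043770) reached 9.37-fold (−log10 q 19.3) with 35 reads, 22 bases downstream of a RefSeq start. It also lay within 1 kb of an end of Tpmt. Its paralog Kdm1a, for LSD1, had none. Chromosome 13, where Kdm1b lies, had TDG at an end of 8.44% of its genes.

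Of the demethylases for lysine 9, Kdm3a had a peak of 5.98-fold (chr6:71632811-71633598) 294 bases outside its outer gene end, 367 bases upstream of the nearest RefSeq start, and Kdm7a one of 5.40-fold 323 bases inside its start (chr6:39206378-39206679). Kdm4a had one of 4.87-fold (chr4:118179610-118180060) and Kdm4b one of 4.53-fold only 4 bases from its lower end (chr17:56325826-56326199). Kdm4c, Kdm4d and Kdm3b had none. Kdm5a, which removes methyl groups from lysine 4, had the lowest fold of any member peak, 3.44, over a local background of 6 reads (chr6:120363748-120364332), the highest at a member peak together with the weaker Setd5 peak, and this peak was shared with an end of Ccdc77. Kdm5b, Kdm5c and Kdm5d had none, although a summit of 5.99-fold lay 3171 bases below Kdm5b, on the side of its start. The lysine 36 demethylase genes Kdm2a and Kdm2b, the lysine 27 demethylase genes Kdm6a and Kdm6b, and Kdm8 had none within 1 kb of an end.

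Among the 11 Hdac genes, TDG lay at Hdac11 and Hdac5. Hdac11, the sole class IV deacetylase, had a peak of 8.01-fold (−log10 q 17.8) with 37 reads (chr6:91156443-91156996), 31 bases inside its outer gene end and 114 bases upstream of its RefSeq start. Hdac5, a class IIa deacetylase that shuttles between nucleus and cytoplasm, had one of 5.47-fold 138 bases outside its start (chr11:102230070-102230530). The class I genes Hdac1, Hdac2, Hdac3 and Hdac8 had none of 4, and Hdac4, Hdac6, Hdac7, Hdac9 and Hdac10 had none either. The sirtuins, NAD-dependent deacylases, had none of 7 (exact interval 0 to 41.0%), and their nearest summits lay between 7036 bases (Sirt3) and 319798 bases (Sirt4) away. The intervals for the Hdac genes (2.28 to 51.8%), the class I genes (0 to 60.2%) and the sirtuins each held the 12.3% of all genes, so these counts do not set them apart.

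**Figure D4:**
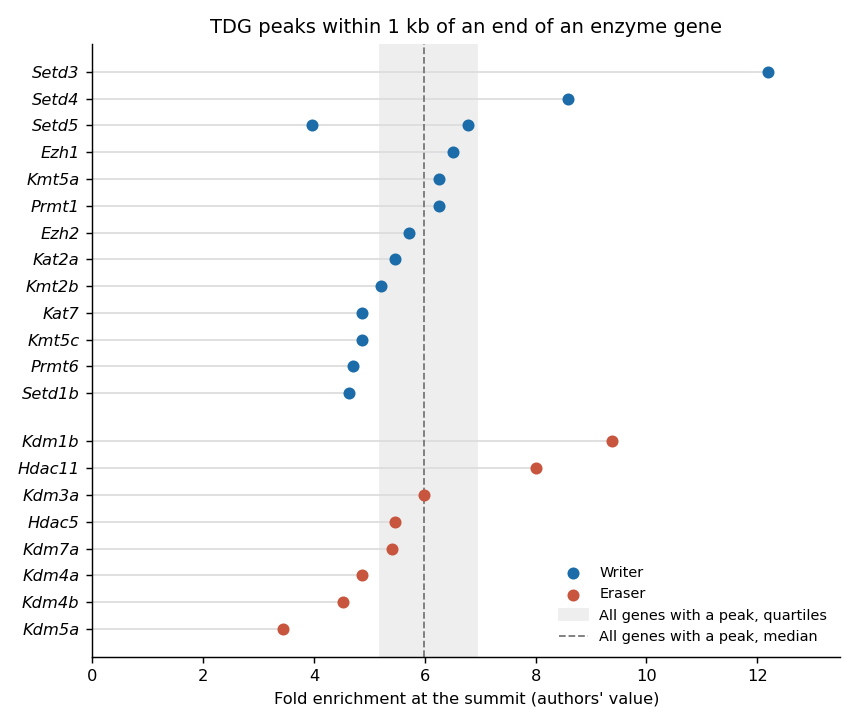
Fold enrichment at the summit (x axis, the authors' value) of each TDG peak within 1 kb of an end of an enzyme gene, writers above erasers, with the median (dashed) and quartiles (grey) of the strongest such peak of all 2689 genes. Setd3 (12.2), Kdm1b (9.37), Setd4 (8.59) and Hdac11 (8.01) lay above the upper quartile of 6.94, and Kdm5a (3.44) was lowest.

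In strength the member peaks had a median somewhat below that of all genes, with overlapping quartiles. The strongest gene-end peak had a median fold enrichment of 5.47 over the 21 members (quartiles 4.87 and 6.51) and of 5.99 over all 2689 genes (quartiles 5.19 and 6.94). Of the 21, 8 lay above the median of all genes and 4 above their upper quartile. Writers had a median of 5.71 over 13 genes and erasers 5.44 over 8, with overlapping quartiles of 4.87 to 6.51 and 4.79 to 6.49. The 22 member peaks held a median of 24.0 reads at the summit, as did all gene-end peaks, over a median local background of 3 reads, against 2.56 for all of them. They were 512 bases wide in the median, against 433 bases for all gene-end peaks. A peak shared with the end of another gene occurred at 5 of the 21 members (23.8%), namely Kdm1b, Kdm5a, Kmt2b, Setd1b and Setd3, against 33.3% of all genes with a peak. Summits lay upstream of the nearest RefSeq start in 10 and downstream in 7 of the 17 members with a start, and downstream in 33.7% of all such genes. The 10 include Setd5, whose nearer gene-end summit lay 27634 bases from its tabulated start.

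**Figure D5:**
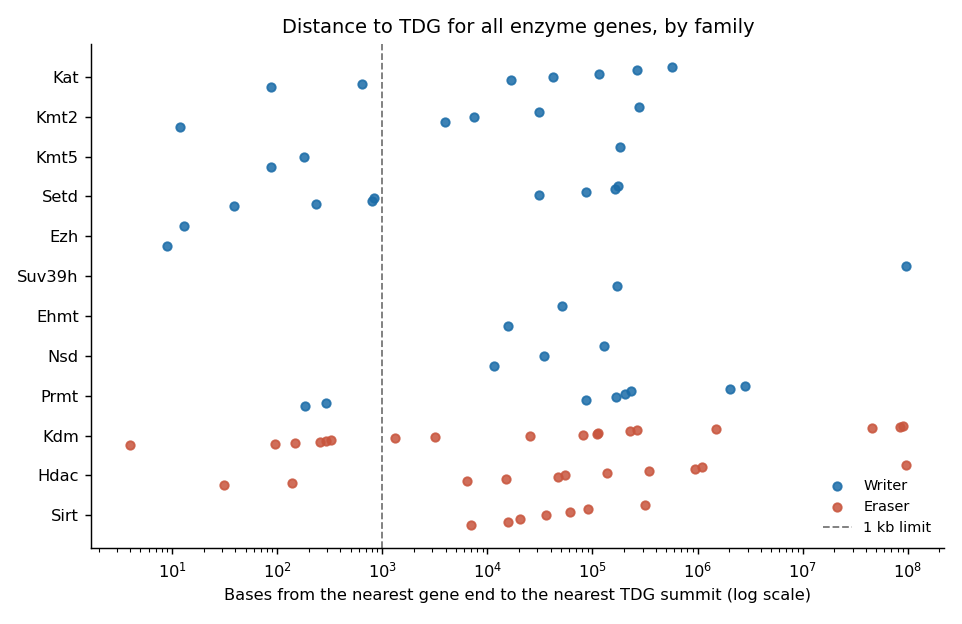
Distance in bases (log scale) from each of the 76 enzyme genes' nearest end to the nearest TDG summit, by family, writers in blue and erasers in red; the dashed line is the 1 kb limit. Setd1b at 835 bases was the farthest inside the limit and Kdm6b at 1330 bases the nearest outside it, and no Suv39h, Ehmt, Nsd or Sirt gene lay inside.

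The 1 kb limit left few genes close by. Just inside it lay Setd1b at 835 bases, Setd4 at 791 and Kat7 at 635, followed by Kdm7a at 323 and Kdm3a at 294. Just outside it lay Kdm6b, for the lysine 27 demethylase JMJD3, with a summit of 7.55-fold at 1330 bases and another of 6.70-fold at 2371 bases from its upper end, both inside the gene. After Kdm5b and Kmt2a came Hdac7 at 6394 bases and Sirt3 at 7036 bases, and these summits lay nearer to Slc48a1 and Bet1l. Farther inside genes, Hdac4 had a peak of 5.09-fold 15212 bases from its outer end, yet 149 bases upstream of the tabulated RefSeq start, which lies 15361 bases inside the gene. Kdm7a had a second peak of 5.10-fold 1310 bases inside its start. Counting any summit in the gene or within 1 kb of it added Hdac4 and Kdm6b, for 13 of 40 writers (32.5%) and 10 of 36 erasers (27.8%), against 14.8% of all genes.

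The second question was whether p53 bound at these genes. A p53 summit lay inside, or nearest to, none of the 76 enzyme genes, which allows a share of up to 3.95% (3 counts of 76), against 0.512% of all protein-coding genes. At that background share the 76 genes would hold 0.389 on average, so a count of 0 does not set them apart from other genes. The closest p53 peaks lay 37366 bases from Setd5 (8.23-fold) and 41171 bases from Kdm2a (9.23-fold) and were assigned to Thumpd3 and Rhod. On chromosomes with no p53 peak lay 10 members. No member thus carried peaks of both kinds.

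Short sequence motifs were then counted in the promoter windows on both strands. The CCAAT box (CCAAT), the site of the factor NF-Y, was present in 11 of 17 members with a TDG peak (64.7%) and in 16 of 44 without (36.4%), and in 44.6% of all genes with a peak and 39.2% of all genes. The GC box of Sp and KLF factors (GGGCGG) was present in 8 of 17 members with a TDG peak (47.1%) and in 28 of 44 without (63.6%), and in 75.2% of all genes with a peak and 46.3% of all genes. The ETS motif (CCGGAAG) was present in 3 of 17 (17.6%) and 9 of 44 (20.5%), beside 20.3% of all genes with a peak and 11.9% of all genes. The E-box (CACGTG) was in 2 of 17 (11.8%), namely Hdac5 and Prmt1, and in 5 of 44 (11.4%), beside 10.00% of all genes with a peak and 7.91% of all genes. The cAMP response element (TGACGTCA), the NRF1 motif (GCGCA followed directly by TGCGC) and the YY1 motif (AAGATGGCG) were in none of the 17 members with a peak. Of the 44 members without, 2 held the cAMP response element, 1 the NRF1 motif and 2 the YY1 motif. Over all genes with a peak the shares were 4.56%, 2.48% and 3.23% in the same order, and over all genes 2.33%, 1.33% and 1.92%. A p53 site (by name) was in none of the 61 member windows and in 0.0400% of all windows. No motif searched contains another, and a motif that reads the same on both strands was counted once. The printed Kdm1b window held 6 GC boxes and no CCAAT box, whereas that of Ezh1 held none of the motifs searched.

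A list of enzymes of related families under other names, not all of the same chemistry, was counted in the same way. A TDG summit lay at an end of 10 of 25 such genes (40.0%), beside the same 12.3% of all genes. The exact interval, 21.1 to 61.3%, held the 22.3% of CpG-rich genes. Writers among the 10 were Hat1 (6.25-fold), for the acetyltransferase of newly made histone H4, and Ep300 (5.99-fold), for p300. The methyltransferase genes Carm1 (6.72-fold), Setdb2 (4.70-fold) and Setmar (6.62-fold) were others, with Smyd4 (6.48-fold) and Smyd5 (7.22-fold) of the SET and MYND domain family. The oxygenase genes with a Jumonji fold were Jmjd6 (7.55-fold), Riox1 (6.28-fold) and Riox2 (8.07-fold). Setdb1, Dot1l, Ash1l and Crebbp were among the 15 without a peak, and none of the 25 was assigned a p53 peak.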

How the data were processed

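Peak lists of 2 ChIP-seq libraries from B16 cells with HA-tagged Tdg were used, those of the HA and of the p53 antibody. The submitters' processing notes name Trim Galore, Bowtie2, Picard, deepTools, MACS2, ChIPseeker and the build mm10, with no version, order or role. Which control library and which threshold the calls used is not given in the sources used here. For each peak the authors deposited a fold enrichment, which is a ratio to local background, and −log10 p-values and −log10 q-values at the summit. The deposited score was the −log10 q multiplied by 10 and truncated, in 3410 of 3410 TDG and 126 of 126 p53 peaks. Positions make up the rest of the deposited columns. The lowest −log10 q was 3.02 for TDG and 3.74 for p53.

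The lists hold no library totals, so the depth is unknown except through reads at the summit and local background. These were recovered by solving the MACS2 formulas for fold and Poisson p and choosing the solution with whole reads (within 0.05) after scaling by 0.924 for TDG and 0.792 for p53. The background of 3 p53 peaks was not recovered. Genes came from RefSeq GRCm38.p6, and starts, strands and promoters from its promoter table. The p53 site was 2 copies of the consensus decamer up to 13 bases apart. Intervals are exact binomial (Clopper-Pearson) 95% intervals and cover counting error only. No enrichment or chance test was made, because the members and lists were chosen with earlier results of these data known and neighbouring genes are not independent. Named genes were every member with a TDG peak at an end or in the gene, the 5 members nearest the 1 kb limit on either side, and paralogs of which 1 had a peak. Other genes are named to account for every family, and the other enzymes and partners without a peak were picked after their values were seen. The peak assignment and the recovery of backgrounds were tested on simulated data. Alternatives covered the window, peak threshold, shared ends, starts only, whole genes, local background and the set of genes. Python 3.11.15, pandas 2.3.3, NumPy 2.4.6, SciPy 1.17.1 and matplotlib 3.10.9 were used.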

Additional observations from a re-analysis of the deposited data

How the results depend on the processing

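The count of 21 enzyme genes with TDG at an end lay between 15 and 23 under 11 of the 12 alternatives run, with 3 kb or 500 base windows, a −log10 q of at least 5, the nearest gene end, starts only, whole genes, and without regions of high local background (at least 10 reads), members of mainly other substrates, the X chromosome, CpG-poor promoters or chromosome 6. Leaving out CpG-poor promoters and chromosome 6 was chosen after seeing the data. These 11 counts are out of 54 to 76 members, beside shares of all genes from 10.3% to 22.3%. Without CpG-poor promoters the members had 16 of 54 (29.6%), beside 22.3% of all CpG-rich genes. Without chromosome 6 they had 15 of 69 (21.7%), beside 11.6% of all genes. With peaks at or above the median fold of the list the counts were 9 members (11.8%), 6 writers (15.0%) and 3 erasers (8.33%). All genes then had 6.62%, since this limit removes the weaker peaks of all genes. The exact intervals, 5.56 to 21.3%, 5.71 to 29.8% and 1.75 to 22.5% in that order, each held the 6.62%. The erasers moved to 4 of 32 without chromosome 6, since 4 of the 8 lay there. The 0 members with a p53 peak stayed at 0 under the 5 alternatives run. The median fold of 5.47 was 5.84 with 3 kb and 5.59 with the nearest end, and on the −log10 q scale the members had 8.11 and all genes 8.65. No paired analysis was possible because each antibody had 1 library. The limits are 1 library per antibody, counts of few genes per family, starts known for 61 of 76 members and gene ends in place of active promoters.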

Other observations

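Subunits that work beside these enzymes were also counted, from a list of 25 non-catalytic partners. A TDG peak lay at an end of 8 of them (32%), against 12.3% of all protein-coding genes. The exact interval, 14.9 to 53.5%, held the 22.3% of CpG-rich genes. The 8 included Eed (5.33-fold) and Suz12 (4.10-fold), which encode partners of Ezh1 and Ezh2 in Polycomb repressive complex 2. Rbbp4 and Rbbp7, on the same list and also of that complex, had no TDG peak at an end. The 4 Ing genes Ing1 (5.47-fold), Ing2 (7.03-fold), Ing4 (4.44-fold) and Ing5 (7.55-fold), for reader subunits of acetyltransferase and deacetylase complexes, had a peak, and Ing3 did not. Rcor1 (4.27-fold), for the LSD1 partner CoREST, and Brpf1 (6.82-fold), for a scaffold of MOZ-type acetyltransferase complexes, completed the set. Wdr5, Ash2l, Rbbp5 and Dpy30, the shared core of the lysine 4 methyltransferase complexes, had no TDG peak at an end. None of the 25 was assigned a p53 peak.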
